A study of Bos taurus with 28 samples.

Results

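The comparison of PP2, about day 13 after calving, with PreP, about day -11 relative to the expected calving date, was made on RNA-seq read counts of subcutaneous adipose tissue (AT). The study gives these days for the groups with a spread, not for each cow. All 9 PP2 libraries and all 9 PreP libraries were taken, which is 18 of the 28 libraries of the series, and each was made from 1 biopsy of the right flank of a healthy multiparous Holstein dairy cow. The biopsies came from 10 cows, of which 8 gave both libraries, 1 gave PreP only and 1 gave PP2 only. At PreP the cows were pregnant, not lactating and on a close-up diet, and at PP2 they were lactating and on a fresh diet, so calving, lactation and diet cannot be told apart. The incision was moved a few centimetres between collections, and a biopsy at day 6 came between PreP and PP2. A gene was tested when 1 or more of the 18 libraries had 3 reads or more of it, which held for 18558 of the 24616 listed. The text describes them mainly through the 1760 tested genes that could be given a symbol, all of them among the lowest-numbered Ensembl IDs. A list below therefore covers only part of its pathway or cell type, from 11 of 83 listed genes for oxidative phosphorylation to 47 of 60 for cell division among the pathway lists, and its other genes were not analysed here. Coordinates and sequences were not used here.

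Subcutaneous AT stores fatty acids as triglycerides and releases them by lipolysis. Around calving, milk synthesis and low feed intake draw on this store while insulin falls, and the tissue makes less new fat. The same period is known for immune cell entry and for rebuilding of the extracellular matrix in AT.

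Total counts ran from 15293154 to 21762196 per library with a median of 19831431, and 3 reads corresponded to 0.131 to 0.194 CPM (read counts scaled to the TMM library size). The PP2 library of cow B5090 stood apart. Its 29 tested skeletal muscle marker genes summed to 15060 CPM, against 87.2 to 182 CPM in the other PP2 libraries and 102 to 145 CPM at PreP. LMOD2, a thin filament protein of striated muscle, reached 1482 CPM in this library with a PP2 median of 0.0988 CPM, and MYO18B reached 832 CPM with a median of 0.209 CPM. MYO18B is a myosin of striated muscle, and both genes are shown as examples chosen after their values were seen. Of the 29 muscle genes, 17 were called upregulated by edgeR with this library, while DESeq2 called 1, limma voom 0 (4 at an unadjusted p under 0.05) and the blocked edgeR fit 1. Without it 26 of them could be tested, 0 were called by edgeR in either direction, 4 had an unadjusted p under 0.05 and 1, CORO6, had an FDR under 0.05. The median log2 fold change of the list was 4.25 with the library and -0.15 without it. Below, counts for a list are given with and without this library where they differ, and values without it are given for every named DEG that lost its call.

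Genes were called differentially expressed (DEGs) by edgeR's quasi-likelihood test when the p adjusted by Benjamini-Hochberg (FDR) was below 0.05 and the log2 fold change exceeded 1 in size, where a positive value is higher at PP2. Of the 1760 genes with a symbol, 70 (3.98%) were upregulated and 29 (1.65%) were downregulated, against 3.52% and 1.95% of all genes tested. Without the PP2 library of cow B5090, 47 of the 70 upregulated genes and all 29 downregulated genes kept their call, and the background was 3.55% upregulated and 2.57% downregulated. A fit with cow as a replicate block, on the 8 cows with both libraries, kept the call of 8 of the 70 and 19 of the 29, where 0.779% and 1.39% of all genes were called. Where the text leaves the PP2 library of cow B5090 out of this fit as well, the PreP library of that cow was dropped too. Of all genes tested, 653 were upregulated and 362 downregulated, and in the blocked fit the split turned to 144 and 257. Within cows, of the 29 downregulated genes, 15 were lower at PP2 in all 8 paired cows and 25 in at least 7, while 5 of the 70 upregulated genes were higher in all 8 and 35 in at least 7. MAOB and CYP1A1 were the only genes with a symbol whose PP2 libraries all lay below every PreP library, and no gene with a symbol had all PP2 libraries above every PreP library.

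PCK1, ACSM1 and HSD17B12 were downregulated among the tested members of the fatty acid and triglyceride synthesis list, 11 of the 48 listed. The list is wider than the enzymes of synthesis. It also holds ACSM1, an acyl-CoA synthetase, and CRAT, carnitine acetyltransferase, which is in the fatty acid oxidation list too. Of these 11 members, 3 were downregulated and 0 upregulated, against 1.95% and 3.52% of all genes tested, and 9 of 11 had a negative log2 fold change. The list median was -0.63, where the median of all genes tested was 0.0991. When the PP2 library of cow B5090 was left out, 5 of the 11 were downregulated, against 2.57% of all genes tested, with a median of -0.86. The blocked fit called 2, and 1 when that library was also left out. PCK1 (ENSBTAG00000001936), the cytosolic PEP carboxykinase that supplies glycerol for triglycerides in AT, ran from 17.0 to 189 CPM at PreP (median 113) and from 2.13 to 35.0 CPM at PP2 (median 11.8). Its ranges overlapped through the PreP library of cow B5169, which was the lowest at PreP and the only one below its own PP2 value. PCK1 had a log2 fold change of -2.96 (SE 0.487, FDR 0.00238), with an FDR of 0.0252 in the blocked fit and of 0.0505 when the PP2 library of cow B5090 was also left out of it.

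ACSM1 (ENSBTAG00000001417), a medium-chain acyl-CoA synthetase, ran from 228 to 929 CPM at PreP (median 580) and from 24.1 to 239 CPM at PP2 (median 102). All PP2 libraries but 1 lay below every PreP library, and cow B5169 was at once the lowest at PreP and the highest at PP2. ACSM1 fell by 2.27 on the log2 scale (SE 0.38, FDR 0.00238; blocked FDR 0.0157). HSD17B12, which reduces ketoacyl-CoA in fatty acid elongation, ran from 14.5 to 373 CPM at PreP (median 190) and from 6.27 to 86.5 CPM at PP2 (median 57.6). Most PP2 libraries lay inside the PreP range, which was widened by the PreP low of cow B5169. The next lowest PreP value was 70.2 CPM in cow B5165, and all PP2 libraries but that of cow B5169 lay below it. HSD17B12 fell by 2.19 (SE 0.519, FDR 0.01725), a call that was lost in the blocked fit (FDR 0.155). In all 3 downregulated members the lowest PP2 library was that of cow B4886. PFKFB1, a bifunctional enzyme that sets fructose 2,6-bisphosphate, and CRAT, carnitine acetyltransferase, were not called with all 18 libraries but were downregulated when the PP2 library of cow B5090, their highest at PP2, was left out, and are named after their values were seen. The log2 fold change without it was -1.50 for PFKFB1 (FDR 0.0419) and -1.03 for CRAT (FDR 0.00608), against -0.96 (FDR 0.28) and -0.53 (FDR 0.392) with it.

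**Figure D1:**
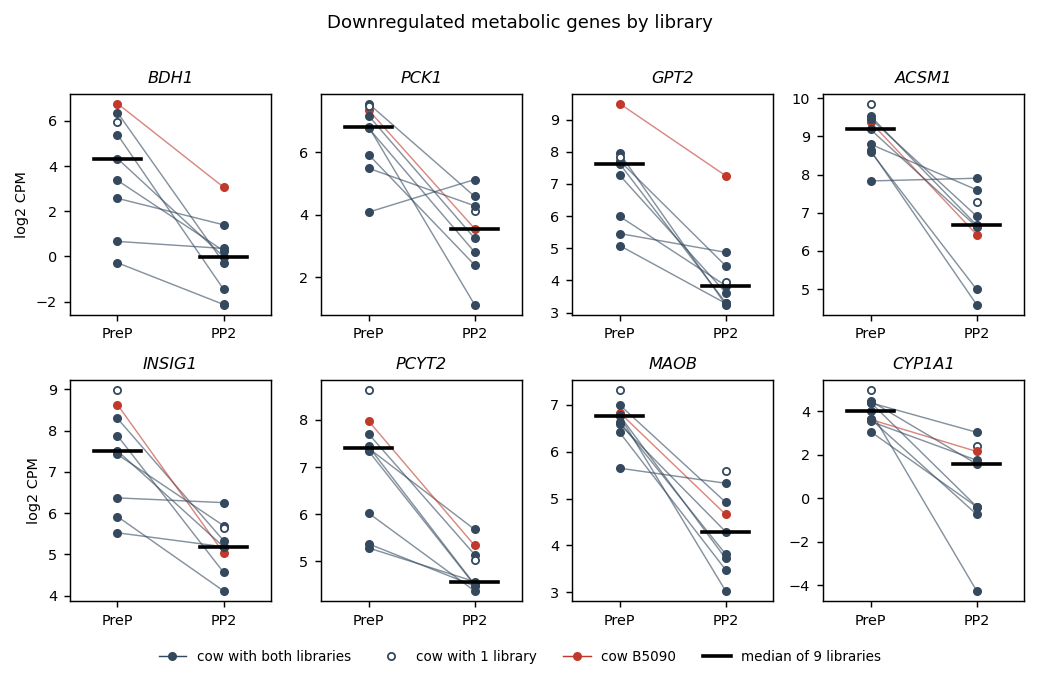
Log2 CPM (prior count 1) of 8 downregulated genes in each of the 9 PreP and 9 PP2 libraries, with lines joining libraries of the same cow and cow B5090 marked in colour. MAOB and CYP1A1 show no overlap between PreP and PP2, and the PP2 library of cow B5090 is the highest PP2 library for GPT2 and BDH1.

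INSIG1 and PCYT2, which act in sterol and phospholipid metabolism, were lower at PP2 in all 8 paired cows. INSIG1 (ENSBTAG00000001592), which holds the sterol sensor SCAP in the endoplasmic reticulum, ran from 45.9 to 509 CPM at PreP (median 182) and from 17.25 to 76.35 CPM at PP2 (median 36.3). In all, 6 PP2 libraries lay below every PreP library. Its log2 fold change was -2.455 (SE 0.417, FDR 0.00242), and the blocked FDR was 0.0258. PCYT2 (ENSBTAG00000001868), the rate-limiting enzyme of the CDP-ethanolamine route, ran from 39.0 to 398 CPM at PreP (median 169) and from 20.7 to 51.2 CPM at PP2 (median 23.8), with 7 PP2 libraries below every PreP library. It fell by 2.47 (SE 0.385, FDR 0.00137; blocked FDR 0.00959). ACAT2, a cytosolic thiolase at the first step of cholesterol synthesis, was less uniform, with 3 of 8 cows higher at PP2 and a log2 fold change of -1.44 (FDR 0.0323). That call was lost in the blocked fit (FDR 0.216) and in 8 of the 18 fits that each left out 1 library, with an FDR of up to 0.074 without the PreP library of cow B5102. INSIG1 and ACAT2 were the 2 downregulated genes among the 7 tested members of the cholesterol list, against 1.95% of all genes tested. The list median was -0.39.

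BDH1 and ACAA2 were downregulated among the tested genes of fatty acid oxidation and ketone body metabolism, 12 of the 41 listed. Of these 12 members 2 were downregulated, against 1.95% of all genes tested, and 0 were upregulated. In all, 11 had a negative log2 fold change, with a median of -0.60. Without the PP2 library of cow B5090, 3 were downregulated (CRAT added), against 2.57% of all genes tested, and the median was -0.75. The blocked edgeR fit called 2, and 0 when that library was also left out, with 8 at an unadjusted p under 0.05. DESeq2 and limma voom called 2 each. BDH1 (ENSBTAG00000000448), which interconverts acetoacetate and 3-hydroxybutyrate in mitochondria, ran from 0.771 to 109 CPM at PreP (median 20.0) and from 0.176 to 8.32 CPM at PP2 (median 0.943). Every paired cow was lower at PP2, although the spread between cows at PreP was wide enough for the ranges to overlap. The log2 fold change of BDH1 was -4.42 (SE 0.913, FDR 0.00842), the largest decrease among the named genes. It was -5.32 (FDR 0.00163) without the PP2 library of cow B5090, and the blocked FDR was 0.0304, or 0.0631 when that library was also left out.

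ACAA2, the mitochondrial thiolase of beta-oxidation, ran from 272 to 506 CPM at PreP (median 420.5) and from 62.0 to 370 CPM at PP2 (median 151). In all, 7 PP2 libraries lay below every PreP library. ACAA2 had a log2 fold change of -1.04 (SE 0.3, FDR 0.042; blocked FDR 0.0397, or 0.0656 when the PP2 library of cow B5090 was also left out), and the call was kept in 6 of the 18 fits leaving out 1 library, with an FDR of up to 0.0792 without the PreP library of cow B5102. ECHDC2, an enoyl-CoA hydratase family member, and ACAD10, an acyl-CoA dehydrogenase family member, passed the FDR but not the fold threshold, at -0.83 (FDR 0.0298) and -0.67 (FDR 0.0292).

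NDUFB8 and ATP5MC3 were downregulated among the tested genes of the respiratory chain and ATP synthase, 11 of the 83 listed. Of these 11 members of the oxidative phosphorylation list, 2 were downregulated, against 1.95% of all genes tested. In all, 10 had a negative log2 fold change, with a median of -0.78. Without the PP2 library of cow B5090, which had the highest PP2 level of all 11, 5 were downregulated, against 2.57% of all genes tested. There all 11 were negative and the median was -0.998. The blocked edgeR fit, where 1.39% of all genes were downregulated, called 0. It had 7 at an unadjusted p under 0.05, or 9 when that library was also left out. DESeq2 called 2 downregulated and limma voom 4. NDUFB8, a complex I subunit, ran from 104 to 349 CPM at PreP (median 213) and from 82.9 to 180 CPM at PP2 (median 91.5), and was lower in all 8 paired cows. Its log2 fold change was -1.045 (SE 0.221, FDR 0.00989), and in the blocked fit it was -0.96 (FDR 0.0459), under the fold threshold. ATP5MC3, a subunit of the ATP synthase rotor ring, had a log2 fold change of -1.15 (SE 0.253, FDR 0.012; blocked FDR 0.0674). UQCR10, UQCRB (named after its value was seen) and ATP5MF, subunits of complex III and of ATP synthase, were not called by edgeR with all 18 libraries but were called without the PP2 library of cow B5090, at -1.25 (FDR 0.00319), -1.40 (FDR 0.0226) and -1.05 (FDR 0.028). Of 20 tested mitochondrial ribosome genes 0 were called by edgeR with or without that library, and 0 by DESeq2 or limma voom. With all libraries 5 had an unadjusted p under 0.05 in edgeR, 15 had a negative value and the median was -0.16. MRPL4, MRPS28 and MRPL9 had values of -0.53, -0.80 and -0.62 (FDR 0.0673, 0.0741 and 0.0801). When the PP2 library of cow B5090 was left out, their values were -0.60, -0.98 and -0.79 (FDR 0.0387, 0.0204 and 0.011), under the fold threshold, 4 of the 20 passed the FDR and the median was -0.28.

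The list of glycolysis, glycogen and citrate cycle genes moved with 1 library, that of cow B5090 at PP2 with its muscle transcripts. Of 22 tested members 3 were upregulated and 1 downregulated, against 3.52% and 1.95% of all genes tested. The median was 0.26, which became -0.02 without the PP2 library of cow B5090. There 2 were upregulated and 2 downregulated, with SLC2A10, a glucose transporter named after its value was seen, added at 1.24 (FDR 0.0329) and PFKFB1 among the decreases. PYGM, the muscle glycogen phosphorylase, had a PP2 median of 1.675 CPM and reached 6140 CPM in that library, and its log2 fold change of 8.55 (FDR 0.0174) became -0.17 (FDR 0.869) without it. PFKM, the muscle phosphofructokinase, went from 3.05 (FDR 0.0438) to 0.01 (FDR 0.991). PKM, pyruvate kinase, ran from 138 to 365 CPM at PreP (median 306.5) and from 200 to 1992 CPM at PP2 (median 577), with 6 PP2 libraries above every PreP library. It rose by 1.435 (SE 0.383, FDR 0.0293), and by 1.11 (FDR 0.0439) without the PP2 library of cow B5090, where the call was kept, but the blocked FDR was 0.095 and the call was kept in 12 of the 18 fits leaving out 1 library.

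GPT2 (ENSBTAG00000002980), a mitochondrial alanine aminotransferase that links alanine to pyruvate, fell in every paired cow. It ran from 33.9 to 724 CPM at PreP (median 199) and from 9.44 to 153 CPM at PP2 (median 14.3). All PP2 libraries but 1 lay below every PreP library, and the highest value was that of cow B5090, which was also the highest at PreP. The log2 fold change was -2.795 (SE 0.649, FDR 0.0162), -3.795 (FDR 0.000714) without that PP2 library and -2.85 (FDR 0.00994) with the block.

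Among the 17 tested genes of lipolysis and its receptors, 2 were upregulated and 1 was downregulated, with a median of -0.08. ANGPTL4 (ENSBTAG00000002473), a secreted inhibitor of lipoprotein lipase, ran from 51.9 to 311 CPM at PreP (median 89.4) and from 188 to 476 CPM at PP2 (median 255), and was higher in 7 of 8 cows. Its ranges overlapped through the PreP high of cow B5169, since all PP2 libraries exceeded the other PreP libraries. ANGPTL4 rose by 1.18 (SE 0.299, FDR 0.0237) and the blocked FDR was 0.0289, which became 0.0559 when the PP2 library of cow B5090 was left out as well. FFAR4 (ENSBTAG00000000437), the receptor for long-chain fatty acids known as GPR120, ran from 10.03 to 41.8 CPM at PreP (median 15.95) and from 0.129 to 13.15 CPM at PP2 (median 1.11), and was lower in all 8 paired cows. It fell by 2.48 (SE 0.697, FDR 0.0377; blocked FDR 0.00914), but the call was kept in 6 of the 18 fits leaving out 1 library, with an FDR of up to 0.0788 without the PreP library of cow B5102. PDE4D, a cyclic AMP phosphodiesterase, had a log2 fold change of 1.98 (FDR 0.0409) and, without the PP2 library of cow B5090, of 1.67 (FDR 0.0637). The blocked fit gave 1.61 (FDR 0.318). Its call was kept in 5 of the 18 fits leaving out 1 library, with an FDR of up to 0.0925 without the PP2 library of cow B5165.

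MAOB and CYP1A1, which break down amines and xenobiotics, were separated between PreP and PP2 without overlap. MAOB (ENSBTAG00000001288), monoamine oxidase B, ran from 50.1 to 160 CPM at PreP (median 109) and from 8.12 to 47.9 CPM at PP2 (median 19.6), so the highest PP2 library lay below the lowest PreP library. Its log2 fold change was -2.18 (SE 0.314, FDR 0.001025; blocked FDR 0.00886). CYP1A1 (ENSBTAG00000001021), a cytochrome P450 that oxidises aromatic compounds, ran from 8.28 to 31.6 CPM at PreP (median 16.0) and from 0 to 8.11 CPM at PP2 (median 2.92), again with no overlap. It fell by 2.58 (SE 0.598, FDR 0.0159; blocked FDR 0.029). With HSD17B12 they were the 3 downregulated genes among 30 tested, and 0 were upregulated, against 1.95% and 3.52% of all genes tested. Without the PP2 library of cow B5090, 4 of 29 were downregulated, with GSTM3 (below) added.

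GSTM3, a glutathione transferase, was not called with all 18 libraries, but was called without the PP2 library of cow B5090 and in the blocked fit. It ran from 19.2 to 295 CPM at PreP (median 79.8) and from 1.60 to 178 CPM at PP2 (median 15.2), with cow B5090 highest. The log2 fold change was -1.64 (FDR 0.151) with that library and -2.85 (FDR 0.00236) without it, and the blocked fit gave -2.325 (FDR 0.0492). Among 26 tested redox, heme and metal genes 1 was upregulated and 1 downregulated, against 3.52% and 1.95% of all genes tested. Without the PP2 library of cow B5090, 0 were upregulated and 2 downregulated. MELTF, a membrane-bound transferrin family member, was downregulated at -2.50 (SE 0.61, FDR 0.01965; blocked FDR 0.0544) and lower in all 8 paired cows. Its medians were low, 0.957 CPM at PreP and 0.262 CPM at PP2. The FDR was up to 0.0496 without the PreP library of cow B5176. NXN, a thioredoxin family member, was upregulated at 1.07 (FDR 0.0458; blocked FDR 0.152), and at 0.84 (FDR 0.0767) without the PP2 library of cow B5090 it was not called. NFU1, an iron-sulfur scaffold protein named after its value was seen, was downregulated in that fit (-1.10, FDR 0.0486) and not with all libraries (-0.95, FDR 0.0943). CBS, the first enzyme of transsulfuration, was lower in all 8 paired cows at -0.9999 (FDR 0.0119), just short of the fold threshold.

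TNC, LUM, PI16, PLOD1 and THBS3 were upregulated among the tested genes of the extracellular matrix, 32 of the 66 listed. Of these 32 members 5 were upregulated and 0 downregulated, against 3.52% and 1.95% of all genes tested. In all, 27 had a positive log2 fold change and the list median was 0.61. With the PP2 library of cow B5090 left out, 7 were upregulated, with CCN4, a matricellular protein, and P4HA2, a collagen prolyl hydroxylase chosen after its value was seen, added, and the median was 0.66. The blocked edgeR fit called 1, and 0 when that library was also left out, with 13 at an unadjusted p under 0.05. DESeq2 called 8 upregulated, and limma voom called 2 upregulated and 1 downregulated. TNC (ENSBTAG00000000575), the matrix glycoprotein tenascin C, ran from 3.71 to 32.65 CPM at PreP (median 7.63) and from 1.64 to 301.5 CPM at PP2 (median 34.0). In all, 5 PP2 libraries lay above every PreP library and 1 lay below all of them. TNC rose by 2.56 (SE 0.676, FDR 0.0287; blocked FDR 0.0297, or 0.0525 when the PP2 library of cow B5090 was also left out). The call was kept in 11 of the 18 fits leaving out 1 library, and without the PP2 library of cow B4987, the highest, the value was 1.62 (FDR 0.0856).

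LUM (ENSBTAG00000001745), a small proteoglycan that spaces collagen fibrils, ran from 59.6 to 259 CPM at PreP (median 116) and from 127 to 2563 CPM at PP2 (median 313). In all, 5 PP2 libraries exceeded every PreP library, and cow B4987 was far above the rest. It rose by 2.18 (SE 0.4805, FDR 0.0121), but the blocked FDR was 0.137, and without the PP2 library of cow B4987 the log2 fold change was 1.47. PI16 (ENSBTAG00000002092), a peptidase inhibitor that marks adventitial fibroblasts, reached 3020 CPM in the PP2 library of cow B4886 with a PP2 median of 314 CPM, against a PreP median of 178.5 CPM. It rose by 2.11 (SE 0.546, FDR 0.0259), with a blocked FDR of 0.19 and a value of 1.52 (FDR 0.0612) without the PP2 library of cow B4886. PLOD1, a lysyl hydroxylase of collagen, rose by 1.16 (FDR 0.029; blocked FDR 0.0748; call kept in 10 of 18 fits leaving out 1 library), and THBS3, a thrombospondin named after its value was seen, by 1.42 (FDR 0.0449; blocked FDR 0.127).

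**Figure D2:**
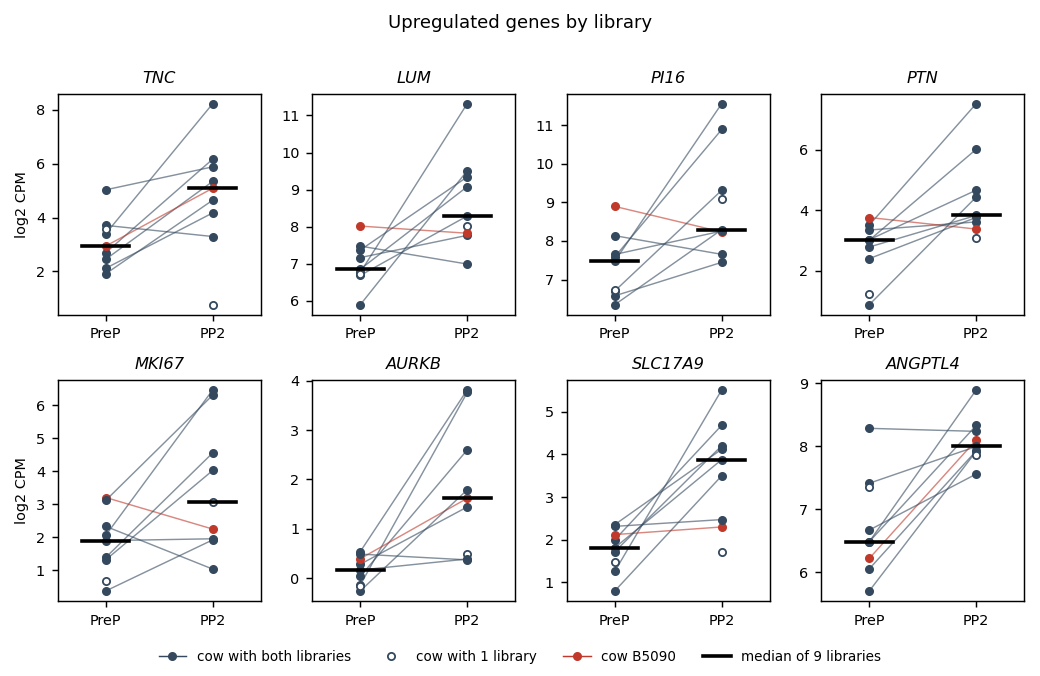
Log2 CPM (prior count 1) of 8 upregulated genes in each of the 9 PreP and 9 PP2 libraries, with lines joining libraries of the same cow and cow B5090 marked in colour. The PP2 libraries spread more widely than the PreP libraries for TNC, LUM, PI16, PTN and MKI67, and SLC17A9 is higher at PP2 in all 8 paired cows.

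Among 25 tested tissue proteases 3 were upregulated and 1 was downregulated, against 3.52% and 1.95% of all genes tested. BMP1, the procollagen C-proteinase, ran from 61.2 to 125 CPM at PreP (median 102) and from 64.8 to 667.5 CPM at PP2 (median 264). In all, 6 PP2 libraries lay above every PreP library, and BMP1 rose by 1.48 (SE 0.376, FDR 0.02385; blocked FDR 0.0843, or 0.0453 and called when the PP2 library of cow B5090 was also left out). BACE2, a membrane aspartyl protease, rose by 1.13 (FDR 0.0148; blocked FDR 0.0991), and ADAMTS1, a secreted metalloprotease, by 1.26 (FDR 0.0427; blocked FDR 0.178). ADAMTS1 kept its call in 4 of the 18 fits leaving out 1 library, with an FDR of up to 0.0862 without the PP2 library of cow B4987. MME (ENSBTAG00000002075), the peptide-cleaving enzyme neprilysin, went the other way, from a PreP range of 0.53 to 46.8 CPM (median 26.7) to a PP2 range of 0 to 4.93 CPM (median 1.63). All PreP libraries but that of cow B5169 had more MME than any PP2 library. The log2 fold change was -3.35 (SE 0.715, FDR 0.0104), and the blocked FDR was 0.0685. Of 45 tested growth factor, Wnt and BMP genes, PTN (ENSBTAG00000002317), the heparin-binding growth factor pleiotrophin, was the only one called with all 18 libraries, where 3.52% of all genes tested were upregulated. In the fit leaving out the PP2 library of cow B5090, 3 were upregulated, with CCN4 (2.54, FDR 0.0421) and PTPRF, a receptor phosphatase named after its value was seen (1.07, FDR 0.0402), added. The blocked fit called 0, with 11 at an unadjusted p under 0.05, DESeq2 called 3 upregulated, and limma voom called 1 in each direction. PTN ran from 1.78 to 13.4 CPM at PreP (median 7.975) and from 8.46 to 184 CPM at PP2 (median 14.1), with a log2 fold change of 2.40 (SE 0.587, FDR 0.0197; blocked FDR 0.0797, or 0.0453 and called when the PP2 library of cow B5090 was also left out) that was 1.51 without the PP2 library of cow B4987.

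AURKB, UHRF1, MKI67, DEPDC1 and DLGAP5 were upregulated among the tested genes of cell division, 47 of the 60 listed. Of these 47 members 5 were upregulated and 0 downregulated, where 3.52% of all genes tested were upregulated, 36 had a positive value and the median was 0.45. Without the PP2 library of cow B5090, 9 were upregulated and the median was 0.53, and in the blocked edgeR fit 0 were called in either direction, with 10 at an unadjusted p under 0.05. DESeq2 called 13 upregulated and limma voom 2. MKI67 (ENSBTAG00000002444), a marker of cycling cells, ran from 1.24 to 9.15 CPM at PreP (median 3.66) and from 1.99 to 88.7 CPM at PP2 (median 8.34), and the highest library was that of cow B4987. It rose by 2.59 (SE 0.689, FDR 0.0293), with a blocked FDR of 0.256, and kept its call in 10 of the 18 fits leaving out 1 library, with an FDR of 0.06775 without the PP2 library of cow B4987. AURKB (ENSBTAG00000001717), a mitotic kinase, ran from 0.784 to 1.40 CPM at PreP (median 1.07) and from 1.24 to 14.05 CPM at PP2 (median 3.02). It rose by 2.25 (SE 0.475, FDR 0.009805; blocked FDR 0.0785) and kept its call in all 18 fits leaving out 1 library. UHRF1, which maintains DNA methylation at replication, rose by 2.06 (FDR 0.0188; blocked FDR 0.181). DLGAP5, a spindle protein, and DEPDC1, a mitotic gene, had low medians that rest on few reads. DLGAP5 went from a median of 0.169 CPM at PreP to 0.37 CPM at PP2, and DEPDC1 from 0 to 0.157 CPM. The PP2 library of cow B4987 held 62.7% and 68.9% of their PP2 CPM. Their log2 fold changes were 3.04 (FDR 0.04995) and 3.82 (FDR 0.04), and without that library 1.80 (FDR 0.183) and 2.34 (FDR 0.158). DLGAP5 and DEPDC1 each kept their call in 7 of the 18 fits leaving out 1 library. Cow B4987 had the highest PP2 library for 4 of the 5.

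STING1, PGLYRP1 and IRF4 were upregulated among the tested genes of innate immunity, 29 of the 64 listed. Of 29 tested genes of innate sensing, interferon and antigen processing, 3 were upregulated and 1 downregulated, against 3.52% and 1.95% of all genes tested, 21 had a positive value and the median was 0.42. Leaving out the PP2 library of cow B5090, 4 were upregulated, with PARP3, a DNA repair enzyme named after its value was seen, added (1.05, FDR 0.015). The blocked fit called 1 upregulated, and 3 when that library was also left out. IRF4 (ENSBTAG00000002929), a transcription factor of lymphocytes and macrophages, ran from 1.53 to 15.2 CPM at PreP (median 6.33) and from 4.40 to 47.9 CPM at PP2 (median 21.4), and was higher in all 8 paired cows. It rose by 1.71 (SE 0.483, FDR 0.0385; blocked FDR 0.025), and kept its call in 6 of the 18 fits leaving out 1 library, with an FDR of up to 0.0852 without the PP2 library of cow B5165. STING1 (ENSBTAG00000002296), the adaptor of cytosolic DNA sensing, rose by 1.31 (SE 0.323, FDR 0.0204; blocked FDR 0.103, or 0.0415 and called when the PP2 library of cow B5090 was also left out) from a median of 22.9 to one of 39.2 CPM. PGLYRP1, a peptidoglycan-binding protein of granulocytes, rose by 1.84 (FDR 0.0382; blocked FDR 0.0599) from medians under 1 CPM, and kept its call in 6 of those fits, with an FDR of up to 0.0771 without the PP2 library of cow B4886. APOL3, an interferon-induced apolipoprotein L, fell by 1.76 (SE 0.328, FDR 0.00449; blocked FDR 0.0304, or 0.0637 when the PP2 library of cow B5090 was also left out) and was lower in all 8 paired cows. Of 21 tested cytokine and chemokine genes 0 were called by edgeR in any of these fits, nor by DESeq2 or limma voom, and 3 had an unadjusted p under 0.05 with all libraries. IL4R, a receptor chain for IL-4 and IL-13, had a value of 0.67 (FDR 0.0602).

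Among immediate early and clock genes, 3 of 11 tested were upregulated by edgeR, against 3.52% of all genes tested, and 3 also by DESeq2 and by limma voom. In the blocked edgeR fit 0 were called and 4 had an unadjusted p under 0.05. The blocked fit called 1, NR4A1, when the PP2 library of cow B5090 was also left out (1.91, FDR 0.04985). NR4A1, an orphan nuclear receptor induced by many stimuli, ran from 8.73 to 143.5 CPM at PreP (median 47.3) and from 52.7 to 563 CPM at PP2 (median 93.5), and rose by 1.69 (SE 0.504, FDR 0.0478; blocked FDR 0.06805). NR4A1 kept its call in 6 of the 18 fits leaving out 1 library, with an FDR of up to 0.119 without the PP2 library of cow B5165. Its relative NR4A3 rose by 2.605 (FDR 0.0263; blocked FDR 0.254) and the kinase PIM1 by 1.02 (FDR 0.0332; blocked FDR 0.0717), with the call kept in 13 and 7 of those fits. Of 20 tested genes of the unfolded protein and amino acid stress response 0 were called by edgeR with all 18 libraries, with 3 at an unadjusted p under 0.05, and 1 was downregulated by DESeq2 and by limma voom. Without the PP2 library of cow B5090, edgeR called SEL1L3, named after its value was seen, downregulated at -1.51 (FDR 0.0207), against -0.22 (FDR 0.896) with it. PPP1R15A, which ends translational arrest, was higher in all 8 cows at 0.85 (FDR 0.0385). SLC17A9 (ENSBTAG00000001829), the vesicular ATP transporter, belongs to none of the lists and was higher at PP2 in all 8 paired cows. It ran from 1.69 to 5.06 CPM at PreP (median 3.46) and from 3.23 to 45.6 CPM at PP2 (median 14.7), with 7 PP2 libraries above every PreP library. It rose by 2.21 (SE 0.42, FDR 0.00529; blocked FDR 0.0346).

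**Figure D3:**
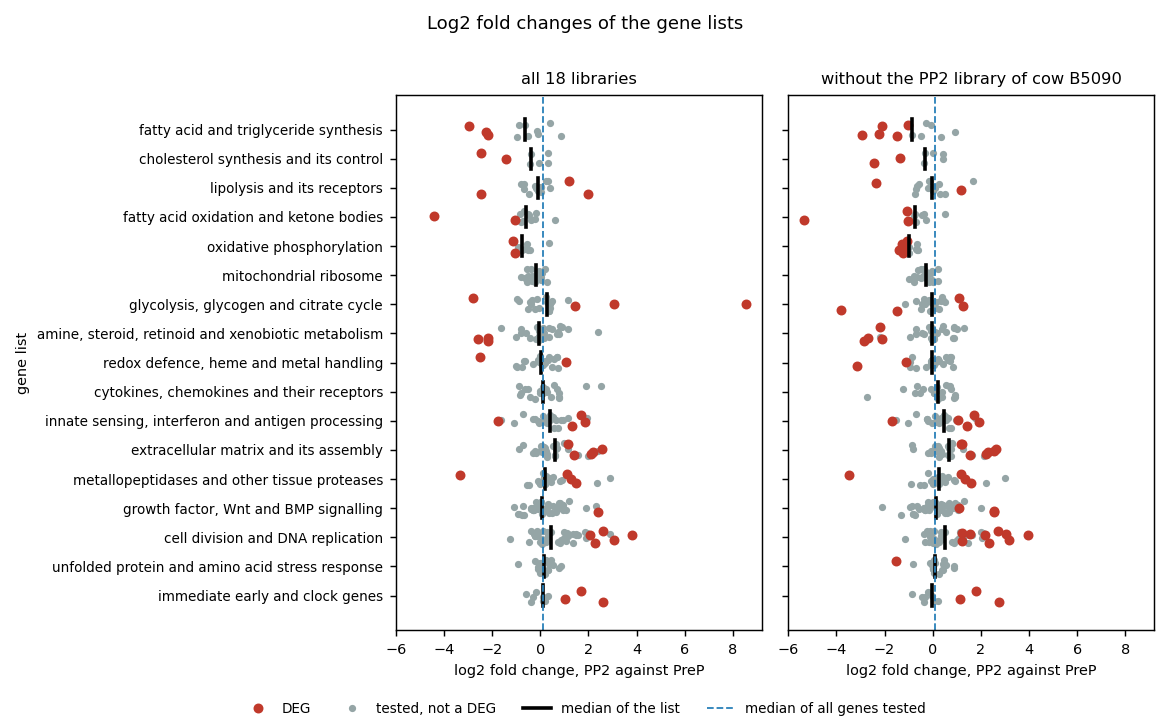
Log2 fold change (PP2 against PreP) of every tested member of 17 gene lists, with all 18 libraries on the left and without the PP2 library of cow B5090 on the right; red points are DEGs, black bars list medians and the dashed line the median of all genes tested. Oxidative phosphorylation and the synthesis and oxidation of fatty acids lie left of the dashed line, extracellular matrix and cell division right of it, and PYGM near 8.55 on the left is gone on the right.

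Marker lists of several cell types were examined beside these groups. The 6 tested adipocyte markers were all lower at PP2, 2 of them (PCK1 and FFAR4) as DEGs, where 1.95% of all genes tested were downregulated. The list median was -0.95 and, without the PP2 library of cow B5090, -0.89. The summed level of the 6 ran from 1038 to 3373 CPM at PreP (median 1882) and from 177 to 2014 CPM at PP2 (median 667). RBP4, a retinol carrier secreted by adipocytes, made up most of that sum and had a log2 fold change of -0.999 (FDR 0.2175). PPARG, the main transcription factor of adipocytes, had one of -0.89 (FDR 0.0917). In bulk AT, fewer adipocytes and less RNA per adipocyte cannot be told apart, and the part of the adipocyte markers in the decreases of metabolic genes was not tested.

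For the marker lists that follow, 3.52% of all genes tested were upregulated and 1.95% downregulated. Of 17 tested lymphocyte markers 4 were upregulated, LY9 (1.27, FDR 0.0265), IRF4, SLAMF7 (1.255, FDR 0.0455) and SASH3 (1.005, FDR 0.0421), and the list median was 1.005. Their summed level ran from 68.9 to 127 CPM at PreP (median 86.8) and from 89.1 to 236 CPM at PP2 (median 134.5). In the blocked fit, where 0.779% of all genes were upregulated, IRF4 alone kept its call. CD68 (ENSBTAG00000000133), a lysosomal protein of macrophages, was the only DEG among 13 tested macrophage markers with all 18 libraries. The list had 11 members with a positive value, a median of 0.30 and 5 members at an unadjusted p under 0.05, and its summed level ran from 344 to 661 CPM at PreP (median 479) and from 194 to 838 CPM at PP2 (median 667). Without the PP2 library of cow B5090, which held the lowest sum, 12 were positive and 2 were upregulated, with PILRA, an inhibitory receptor of myeloid cells named after its value was seen, added (1.15, FDR 0.0469). DESeq2 and limma voom also called 2 upregulated. CD68 ran from 18.4 to 98.2 CPM at PreP (median 40.9) and from 35.9 to 270 CPM at PP2 (median 114.5), and rose by 1.48 (SE 0.365, FDR 0.0206; blocked FDR 0.0426). Of 6 tested fibroblast and mural markers LUM and PI16 were upregulated, and the summed level went from a median of 2439 CPM to one of 3944 CPM. PDPN, a marker of lymphatic endothelium, was the only DEG among 11 tested endothelial markers (1.47, FDR 0.0248; blocked FDR 0.252). Of 10 tested epithelial and mammary markers PKP2, a desmosomal plakophilin, was the only DEG (-1.50, FDR 0.0401; blocked FDR 0.0251). The 8 tested blood cell markers summed to medians of 9.35 CPM at PreP and 11.2 CPM at PP2, with PGLYRP1 as the only DEG, and of 3 mesothelial markers 0 were called by edgeR, where all 3 had an unadjusted p under 0.05, 1 by DESeq2 and 0 by limma voom. The part of these cell types in the matrix, cell division and immune results was not tested.

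**Figure D4:**
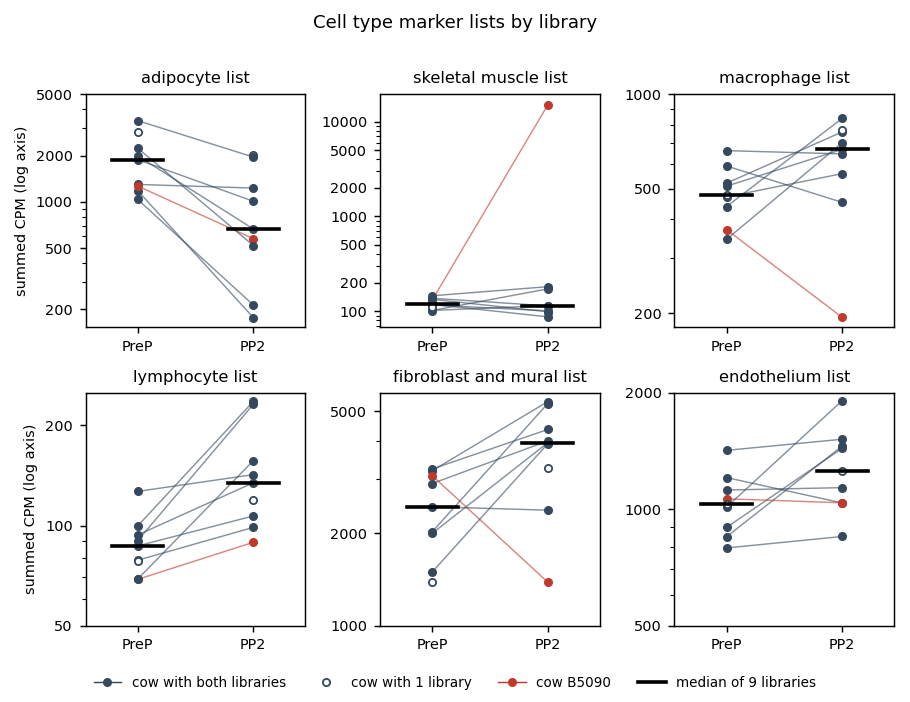
Summed CPM (log axis) of 6 cell type marker lists in each PreP and PP2 library, with lines joining libraries of the same cow and cow B5090 marked in colour. The skeletal muscle sum reaches 15060 CPM in the PP2 library of cow B5090, the macrophage sum of that library is the lowest at 194 CPM, and the adipocyte sums at PP2 run from 177 to 2014 CPM.

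The PP2 libraries differed in how far they had moved from PreP. Of the 47 upregulated genes with a symbol that were called with and without the PP2 library of cow B5090, 42 lay above every PreP library in cow B5165, 41 in cow B4987, 39 in cow B5129 and 37 in cow B4886, but 16 in cow B5169 and 13 in cows B5079 and B5090. Of the 29 downregulated genes, 27 lay below every PreP library in cow B4886 and 26 in cow B5064, against 12 in cow B5079 and 10 in cow B5169. The summed adipocyte markers were lowest in cows B4987 (177 CPM) and B4886 (214 CPM) and highest in cows B5079 (2014 CPM) and B5169 (1955 CPM). These PP2 libraries were among those the DEGs were chosen on, so the counts describe them and test nothing.

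**Figure D5:**
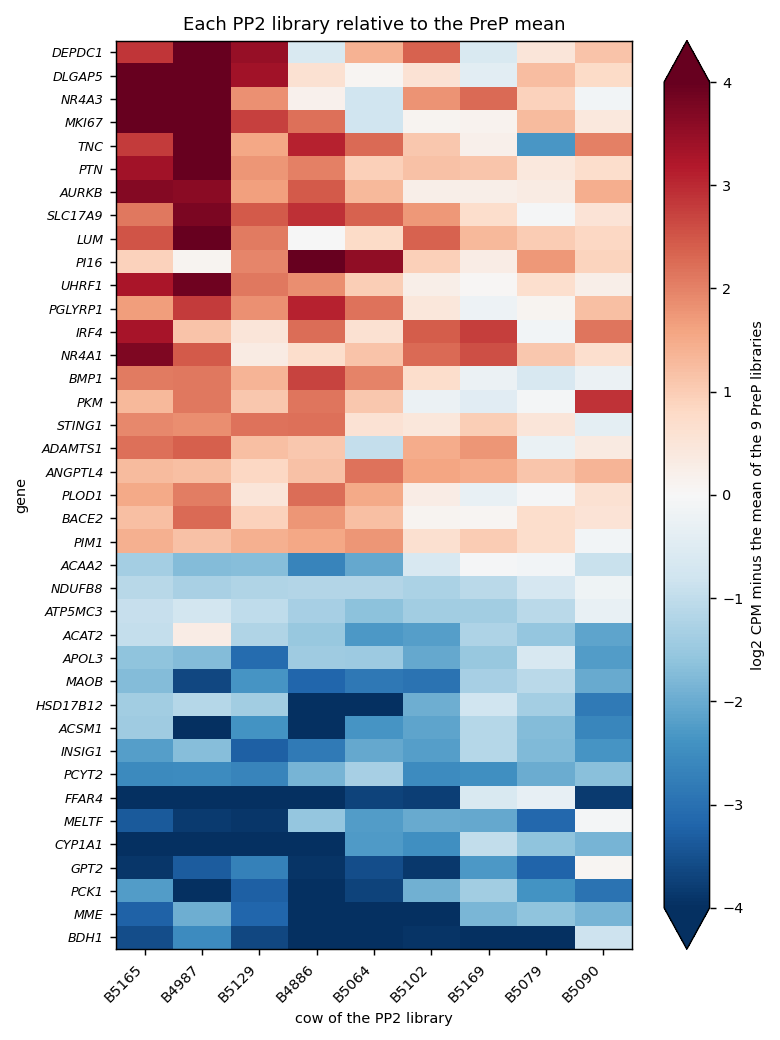
Log2 CPM of 39 named DEGs in each PP2 library minus the mean of the 9 PreP libraries, with genes as rows and cows as columns ordered by the number of upregulated genes above every PreP library. The columns run from cow B5165, with 42 of 47 upregulated genes above every PreP library, to cows B5079 and B5090, with 13.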

How the data were processed

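RNA was sequenced from subcutaneous AT biopsies, and the deposited values are raw read counts per gene, which the authors made by aligning reads with HISAT2 (version 2.1.0) and counting with HTSeq (version 0.6.1) per the submitters' processing notes. Whether the counting used strand is not given in the sources used here. Groups came from the sample labels, and the number of columns of per-sample values left unused was 0. Total counts were 15293154 to 21762196 per library, and low counts limit the genes under about 1 CPM.

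Genes that reached 3 reads in any of the 18 libraries were tested with edgeR 4.0.16 (R 4.3.3), with TMM scaling and the quasi-likelihood test. The thresholds were an FDR of 0.05 and a log2 fold change of 1 in either direction. The SE was the log2 fold change divided by the square root of F, and CPM used TMM library sizes. Symbols were paired with Ensembl IDs through a supplementary table of the study, of which a shortened copy with 1995 IDs was used and 1863 gave a usable symbol. Its fold changes and p-values, the authors' own comparisons, were not used.

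Libraries were paired by the animal number in their titles (8 cows). The correlation of paired deviations from the group means ran from -0.276 to 0.264, with a mean of 0.0166, and the fit with cow as a block was an alternative. Other alternatives were filters on low counts, RLE scaling, all 3 time points in 1 fit, DESeq2 1.42.0, limma 3.58.1 (voom), and leaving out each library. The scripts were tested on simulated data.

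Named genes were the 10 largest increases and decreases among DEGs with a mean of at least 1 CPM that were called with and without the PP2 library of cow B5090, up to 4 genes per pathway list by FDR, and genes the study's text names. Marker genes were named with their lists. The gene lists and the comparison itself were chosen with earlier results of these data known.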

Additional observations from a re-analysis of the deposited data

Results flagged for a closer look

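In groups of 9 libraries, 192 gene levels and list sums were examined for a single library far from the other 8, by Dixon's ratio of its gap to the whole range, taken on log2 CPM or the log2 of the summed CPM, against its 95% critical value. Of these 15 passed, and chance flags about 1 in 20 groups. At PP2 the library of cow B5090 was the highest for GPT2 (ratio 0.594 on the log2 scale, 153 CPM against a median of 13.3 CPM in the others), UQCR10 (0.618, 143 against 45.4 CPM), PYGM (0.768, 6140 against 1.51 CPM) and PFKM (0.827, 1594 against 21.9 CPM). The same library was the highest for the summed lists of oxidative phosphorylation (0.695, 2758 against 1122 CPM), mitochondrial ribosome (0.567, 815 against 525 CPM), glycolysis, glycogen and citrate cycle (0.689, 11500 against 1761 CPM) and skeletal muscle (0.858, 15060 against 107 CPM). It was the lowest for the summed macrophage markers (0.578, 194 against 684 CPM).

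At PP2 the library of cow B5129 was the lowest for ACAD10 (0.596, 18.5 against 39.4 CPM). At PreP the library of cow B5169 was the lowest for MME (0.53, 0.53 against 28.3 CPM). The PreP library of cow B5102 was the lowest for LRP8, a lipoprotein receptor (0.639, 0.619 against 2.06 CPM), PKM (0.523, 138 against 308 CPM), BMP1 (0.638, 61.2 against 108 CPM) and the summed epithelial and mammary markers (0.524, 174 against 338 CPM).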

How the results depend on the processing

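Of all genes tested, 1015 were DEGs, 653 upregulated and 362 downregulated. With cow as a replicate block, on the 8 paired cows, 401 were DEGs and 144 were upregulated. Leaving out both libraries of cow B5090 as well gave 277, 100 upregulated and 177 downregulated. The same 8 cows without the block gave 972. limma voom with sample weights gave 429 upregulated and 622 downregulated DEGs. Leaving out 1 library at a time gave 650 (without PreP B5176) to 1257 (without PP2 B5079) DEGs, 364 (without PreP B5102) to 802 upregulated and 273 to 473 downregulated. The total was also under 1015 by over 1.5 times without PreP B5102 (651), B5090 (665) or B5129 (673), and the upregulated count fell to 364 to 423 without PreP B4886, B4987, B5064, B5090, B5102, B5129 or B5176. Filters on low counts, RLE scaling, all 3 time points in 1 fit and DESeq2 gave 898 to 1299 DEGs. PYGM reversed to -0.17 without the PP2 library of cow B5090, -0.13 in DESeq2 and -0.085 in voom, and was at most 8.72 without any other library. The cause of the other differences was not tested.

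Of the named DEGs, 8 of 26 upregulated and 13 of 17 downregulated kept their call in all 18 fits leaving out 1 library. The blocked fit kept 4 of 26 and 11 of 17, and 6 of 26 and 7 of 17 when the PP2 library of cow B5090 was also left out, voom 11 of 26 and 16 of 17, and DESeq2 24 of 26 and 17 of 17. Genes near 1 CPM rest on few reads.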

Other observations

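Of the DEGs with a symbol, 36 belonged to none of the lists, 24 upregulated and 12 downregulated, and all but PCYT2 and SLC17A9 are named here after their values were seen. Several downregulated ones were abundant before calving. CHPT1, which makes phosphatidylcholine from CDP-choline, went from a median of 133.9 CPM at PreP to 30.3 CPM at PP2 (log2 fold change -1.79, edgeR FDR 0.012, blocked FDR 0.0209). CCDC69 went from 428 to 121 CPM (-1.71, FDR 0.0174, blocked FDR 0.01345) and MRAS, a RAS-family GTPase, from 331 to 87.8 CPM (-1.245, FDR 0.0131, blocked FDR 0.00944), both lower in all 8 paired cows. ISOC1 fell by 1.94 (FDR 0.00244, blocked FDR 0.0172).

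Of the 24 upregulated ones, 20 kept their call without the PP2 library of cow B5090 and 4 kept it in the blocked fit, SLC17A9 and the next 3 named. PRRX2, a homeobox factor of mesenchymal cells, went from a median of 41.9 to 116.5 CPM (1.33, FDR 0.0152, blocked FDR 0.0492). HCLS1, a cytoskeletal adaptor of blood cells, went from 23.7 to 45.6 CPM (1.26, FDR 0.0146, blocked FDR 0.0492), and SLCO2A1, a prostaglandin transporter, from 13.6 to 33.8 CPM (1.27, FDR 0.0306, blocked FDR 0.0493). When the PP2 library of cow B5090 was also left out of the blocked fit, the FDR was 0.0548 for PRRX2 and 0.0683 for HCLS1. PLTP, which transfers phospholipids between lipoproteins, rose by 1.35 (FDR 0.0251), with a blocked FDR of 0.0647. ATP2A2, a calcium pump, and PDE4DIP were called with the PP2 library of cow B5090, where they reached 2981 and 4405 CPM. Without it their log2 fold changes were 0.36 (FDR 0.386) and -0.26 (FDR 0.63).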
